A study of Mus musculus with 30 samples.

Results

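Hepatic mRNA was followed for 10 enzymes that make serine or move its carbon onto folate. They were taken by symbol from 14173 genes counted in 30 livers. The serine synthesis enzymes were *Phgdh*, *Psat1* and *Psph*. The cytosolic folate enzymes were *Shmt1*, *Mthfd1* and *Aldh1l1*, and the mitochondrial ones were *Shmt2*, *Mthfd2*, *Mthfd1l* and *Aldh1l2*. The study asked how protein restriction acts on the liver when the protein is casein or soy and the sulfur amino acids (SAA, methionine and cystine) are set. All animals were male C57BL6/J mice aged 6 months, on their diet for 12 weeks from 12 weeks of age and fasted for 4 h, after 2 weeks of acclimation on the Cas-20% diet (casein groups) or the Soy-20% diet (soy groups). Of 10 mice fed each diet, 6 gave 1 liver library each.

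The Cas-20% diet held 20% casein with 0.57% methionine and 0.41% cysteine by weight. The Cas-5% diet held 5% casein with 0.15% and 0.1%. The Soy-20% diet held 20% soy with 0.22% of each. The Soy-20% + SAA diet was the same with both amino acids raised to 0.58% and 0.41%. The Soy-10% diet held 11.5% soy by its label with 0.13% of each. Restriction lowered total protein together with methionine and cysteine, so these cannot be told apart in the restriction comparisons. Soy-20% against Soy-20% + SAA differed in the amino acids alone, at 20% soy.

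Serine is made from a glycolytic intermediate in 3 steps. PHGDH oxidizes 3-phosphoglycerate, PSAT1 transaminates the product and PSPH removes the phosphate. Serine hydroxymethyltransferase (SHMT1 in the cytosol, SHMT2 in mitochondria) then splits serine into glycine and a 1-carbon unit carried by tetrahydrofolate. In the cytosol, MTHFD1 interconverts the carbon carriers and ALDH1L1 oxidizes 10-formyltetrahydrofolate to release carbon dioxide. In mitochondria, MTHFD2 and MTHFD1L carry the unit to formate, and ALDH1L2 is the counterpart of ALDH1L1. The liver also receives serine from food and the circulation. *Psat1*, *Phgdh*, *Mthfd2* and *Aldh1l2* are among the known targets of the stress-responsive factor ATF4, and this list is not complete for the 10 enzymes.

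Library totals were 7694015 to 14565542 counts. Soy-20% + SAA livers 3 to 6 stood apart. Their counts rose with the GC content of the transcript 3′ end, with slopes of 0.0557 to 0.2004 log2 units per 10 percentage points of GC, while all libraries of the other diets lay between −0.065 and 0.033. Soy-10% liver 4 held pancreatic RNA, with 647 CPM (counts scaled to library size) summed over the 6 acinar markers in the table against medians of 22.1 to 38.8 per diet. Hepatocyte markers were high in every diet (summed 66100 to 94837 CPM over 5 of 5 markers), and the bile duct markers *Krt19*, *Krt7* and *Epcam* averaged at most 1.15 CPM. With *Sox9*, at means of 16.5 to 28.4 CPM, the bile duct list (4 of 4) summed to 16.0 to 20.5 CPM in Soy-10% livers, below the 23.7 to 31.7 of Soy-20% and the 20.9 to 31.9 of Soy-20% + SAA livers. The mean of *Sox9* was 16.5 CPM in Soy-10%, against 25.1 in Soy-20% and 24.2 in Soy-20% + SAA livers. *Epcam* was lower too, at 0.846 against 1.15 and 0.912. *Krt19* (0.609 against 0.489 and 0.429) and *Krt7* (0.504 against 0.313 and 0.438) were higher. The summed stellate markers (5 of 5) were 387 to 529 CPM in Cas-5% and 270 to 383 in Cas-20% livers, and the summed endothelial markers (4 of 4) were 246 to 268 and 189 to 220 CPM. The lymphocyte list (2 of 3 markers in the table) summed to 12.5 to 19.2 CPM in Cas-5% and 9.10 to 18.8 in Cas-20% livers. The part of these cells in the values below was not tested. In whole liver, fewer cells of a type and less RNA per cell cannot be told apart.

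The RefSeq promoter table (GRCm38.p6) held the gene start of 9 of the 10 enzymes, with 2 windows for *Psat1*, and the 250 bases before each start were searched on both strands. The core of the amino acid response element bound by ATF4, TGATGNAA, was in none of the 10 windows, against 3.45% of 32851 mouse windows. This says only that these letters are not in that window. The CCAAT box was searched afterwards, with the expression values known. It was present in 7 of the 9 enzymes and at least 2 times in 5, *Phgdh*, *Psat1*, *Psph*, *Mthfd2* and *Aldh1l1*, against 33.8% and 10.1% of all windows. For *Psph* and *Mthfd1*, which are in these counts, an annotated exon covered all 120 bases nearest the start, matches included. The bases just after their starts, and after that of *Mthfd1l*, were not found near the beginning of an annotated transcript of the gene. A start ahead of the annotated one also gives this. The *Mthfd1* and *Mthfd1l* windows ended at 76255231 and 3973074, just before the GENCODE gene starts of 76255298 and 3973118. The 5 enzymes with at least 2 matches did not move one way, since *Aldh1l1* fell and the others rose under casein restriction (below). Shown here are the bases before the start of 2 enzymes that rose, *Psat1* and *Mthfd2*, and of 2 that fell, *Aldh1l1* and *Shmt2*, with CCAAT or its reverse complement ATTGG in capitals, each in the direction of the gene.
Psat1, minus strand, chr19:15925060-15925179: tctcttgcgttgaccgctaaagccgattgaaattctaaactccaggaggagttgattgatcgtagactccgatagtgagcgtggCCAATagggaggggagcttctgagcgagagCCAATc
Mthfd2, minus strand, chr6:83317607-83317724: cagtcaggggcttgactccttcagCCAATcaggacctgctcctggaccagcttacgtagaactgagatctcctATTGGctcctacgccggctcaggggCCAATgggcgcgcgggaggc
Aldh1l1, plus strand, chr6:90550673-90550788: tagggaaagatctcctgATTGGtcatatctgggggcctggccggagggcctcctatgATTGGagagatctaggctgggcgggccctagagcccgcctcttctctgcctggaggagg
Shmt2, minus strand, chr10:127522445-127522564: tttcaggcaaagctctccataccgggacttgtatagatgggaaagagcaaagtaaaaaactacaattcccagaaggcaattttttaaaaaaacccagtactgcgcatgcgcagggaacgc
They are the 120 bases before the RefSeq start, less the bases next to it that an annotated exon covers, which left 118 for *Mthfd2* and 116 for *Aldh1l1*. For *Psat1*, *Mthfd2* and *Aldh1l1* that start lies inside the GENCODE gene, which has transcripts that begin further upstream. The other *Psat1* window held no CCAAT. Matches were a description of the letters, and no binding was measured.

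All 3 serine synthesis mRNAs rose when casein was restricted. *Phgdh*, the entry enzyme (chr3:98313170-98339990), was not detected in Cas-20% livers, with 0 counts in each of 6. In Cas-5% livers it had 16.7, 39.4 and 62.1 normalized counts (lowest, median and highest of 6). The mean of 37.8 ± 16.9 (SD, n = 6) was at least 12.4-fold above the level that 3 counts per library would give. The groups did not overlap (edgeR quasi-likelihood F test, adjusted p = 1.73e-05).

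*Psat1*, the aminotransferase (chr19:15904678-15947337), had 1.93, 4.70 and 7.01 normalized counts in Cas-20% livers. In Cas-5% livers these were 131, 155 and 172. Every Cas-5% liver lay far above every Cas-20% liver, with a log2 fold change of 5.02 ± 0.17 (SE) and an edgeR adjusted p of 1.3e-11. Of 12076 genes tested in this comparison it had the smallest p and, after *Phgdh*, the second largest log2 fold change.

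*Psph*, the phosphatase (chr5:129765558-129787449), was already measurable in control livers, at 47.3, 57.3 and 73.1 normalized counts in Cas-20%. It reached 106, 129 and 138 in Cas-5% livers, again without overlap. Its log2 fold change of 1.10 ± 0.11 (edgeR adjusted p = 3.33e-06) was the smallest of the 3.

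In soy-restricted livers the same mRNAs stood lower than in Cas-5% livers (tests below). *Psat1* had 26.4, 56.5 and 93.1 normalized counts in Soy-10% livers, against 1.94, 4.13 and 8.39 in Soy-20% + SAA and 4.02, 6.35 and 12.6 in Soy-20% livers. All Soy-10% livers lay above all livers of both soy controls. The edgeR log2 fold change was 3.60 ± 0.40 against Soy-20% + SAA (adjusted p = 0.000202) and 2.87 ± 0.36 against Soy-20% (adjusted p = 0.00124). It was the largest rise among the genes tested in either comparison, 11983 and 11897.

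*Psph* in Soy-10% livers had 70.1, 94.3 and 122 normalized counts. These stood above all 6 Soy-20% + SAA livers, which had 42.4, 49.8 and 57.3 (log2 fold change 0.92 ± 0.14, edgeR adjusted p = 0.00110). They overlapped the Soy-20% livers, which had 49.1, 65.3 and 77.9, and the difference of 0.52 ± 0.14 did not pass (adjusted p = 0.104).

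*Phgdh* stayed near the detection limit on every soy diet. Its 6 Soy-10% libraries held 19 counts in all, between 0 and 8 each, and the 6 libraries of Soy-20% + SAA and of Soy-20% held 2 each. The ratio of normalized sums was 9.89 to Soy-20% + SAA (95% exact interval 2.39 to 87.6) and 9.12 to Soy-20% (2.20 to 80.7), intervals that cover counting error only. It did not reach the CPM minimum of the filter in any soy liver and so was not part of those tests.

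**Figure D1:**
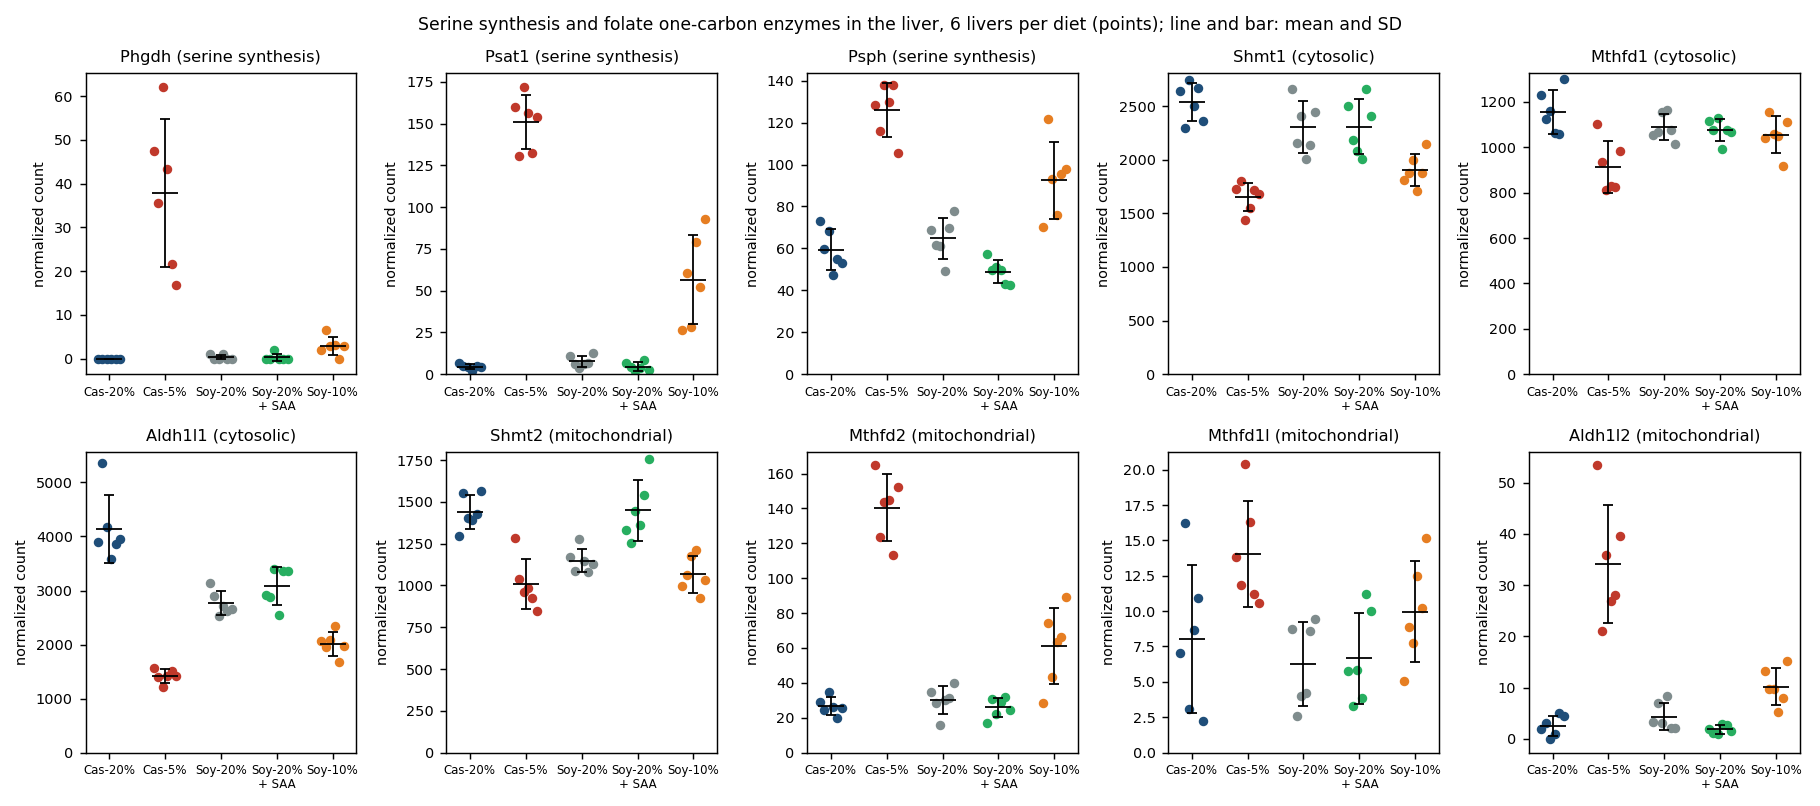
Normalized count (y axis, linear, a scale per panel) of each of the 10 enzymes in each of the 5 diets (x axis), with 1 point per liver and the mean and SD of 6 livers in black. *Phgdh*, *Psat1*, *Psph*, *Mthfd2* and *Aldh1l2* peaked in Cas-5% livers, where *Shmt1*, *Mthfd1*, *Aldh1l1* and *Shmt2* had their lowest means.

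The cytosolic folate enzymes went the other way. *Aldh1l1* (chr6:90486427-90600203) had 3577, 3927 and 5365 normalized counts in Cas-20% livers and 1209, 1414 and 1568 in Cas-5% livers. The highest restricted liver was below the lowest control liver by a wide margin (log2 fold change −1.53 ± 0.10, edgeR adjusted p = 1.28e-08). In Soy-10% livers it had 1669, 2018 and 2346 normalized counts, below all Soy-20% + SAA livers (2549, 3138 and 3395) and all Soy-20% livers (2524, 2688 and 3142). The edgeR log2 fold changes were −0.61 ± 0.09 (adjusted p = 0.00105) and −0.46 ± 0.08 (adjusted p = 0.00784).

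*Shmt1* (chr11:60788104-60811718), which splits serine in the cytosol, had 2301, 2569 and 2741 normalized counts in Cas-20% and 1436, 1702 and 1801 in Cas-5% livers. The groups did not overlap (log2 fold change −0.60 ± 0.07, edgeR adjusted p = 1.14e-05). In Soy-10% livers it had 1710, 1879 and 2143, overlapping Soy-20% + SAA at 2007, 2297 and 2657. That difference of −0.28 ± 0.08 passed (edgeR adjusted p = 0.0302), but its adjusted p rose above 0.05, to as high as 0.0707, on leaving out any of 6 single livers, Soy-20% + SAA livers 5 or 6 or Soy-10% livers 1, 2, 4 or 5. Against Soy-20% the log2 fold change was −0.28 ± 0.07 (adjusted p = 0.104).

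*Mthfd1* (chr12:76255298-76319803), the trifunctional cytosolic enzyme, changed least of the 3. It had 1058, 1144 and 1301 normalized counts in Cas-20% and 813, 882 and 1102 in Cas-5% livers, which overlapped (log2 fold change −0.32 ± 0.08, edgeR adjusted p = 0.00897). In Soy-10% livers its mean of 1055 ± 81 (SD, n = 6) was close to 1076 ± 48 in Soy-20% + SAA livers (log2 fold change −0.03 ± 0.06, adjusted p = 0.777).

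Under casein restriction 2 mitochondrial enzymes rose, 1 fell and 1 did not pass. *Shmt2* (chr10:127517123-127522444), the enzyme that brings serine carbon into the mitochondrial pathway, fell. It had 1299, 1417 and 1568 normalized counts in Cas-20% and 849, 971 and 1283 in Cas-5% livers, with no overlap (log2 fold change −0.50 ± 0.09, edgeR adjusted p = 0.000485). In Soy-10% livers it had 923, 1047 and 1214, below the 1254, 1404 and 1756 of Soy-20% + SAA (−0.44 ± 0.09, adjusted p = 0.00670) but overlapping the 1083, 1139 and 1276 of Soy-20% (−0.11 ± 0.07, adjusted p = 0.595). The 3′ end of *Shmt2* is 55% GC, in percentile 94.4 of genes. Of the Soy-20% + SAA livers, 1 to 6 in turn had 1333, 1254, 1445, 1362, 1543 and 1756 normalized counts. Their GC slopes, in the same order, were −0.022, −0.026, 0.056, 0.183, 0.178 and 0.2004. With the GC slope of the library as covariate, the *Shmt2* log2 fold change against Soy-20% + SAA was −0.26 (edgeR adjusted p = 0.154). Without livers 3 to 6 of that diet it was −0.28 (adjusted p = 0.174). Beyond these runs, the part of the GC trend in this difference was not tested.

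*Mthfd2* (chr6:83305691-83325908), the mitochondrial dehydrogenase and cyclohydrolase, rose. It had 19.9, 25.8 and 34.8 normalized counts in Cas-20% and 113, 144 and 165 in Cas-5% livers, a log2 fold change of 2.41 ± 0.13 (edgeR adjusted p = 6.71e-09) with no overlap. In Soy-10% livers it had 28.4, 64.8 and 89.3, against 17.2, 26.7 and 31.7 in Soy-20% + SAA livers (1.23 ± 0.24, adjusted p = 0.00568) and 16.1, 30.7 and 40.01 in Soy-20% livers (1.02 ± 0.25, adjusted p = 0.0680). All Soy-10% livers but liver 1, at 28.4, lay above every liver of both soy controls.

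*Aldh1l2* (chr10:83487450-83534140) was nearly silent in control livers, at 0 to 4.98 normalized counts in Cas-20%. It reached 21.1, 32.0 and 53.4 in Cas-5% livers (log2 fold change 3.71 ± 0.38, edgeR adjusted p = 2.7e-06). In Soy-10% livers it had 5.21, 9.69 and 15.2, all above the 0.968, 1.73 and 2.88 of Soy-20% + SAA livers, while the Soy-20% range of 2.11 to 8.36 overlapped them. It was left out of the soy tests by the filter on low counts. With no filter its log2 fold change against Soy-20% + SAA was 2.37 (adjusted p = 0.00125) and against Soy-20% 1.19 (adjusted p = 0.167).

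The last exon of *Aldh1l2* shares 1056 nt with the opposite-strand gene *D10Wsu102e*, and whether counting used strand is not given in the sources used here. *D10Wsu102e* itself changed by 0.34 ± 0.11 under casein restriction (adjusted p = 0.0264) and by −0.17 ± 0.13 under soy restriction (adjusted p = 0.378). Shorter opposite-strand overlaps were at the 3′ ends of *Shmt1* (*Smcr8*, 184 nt) and *Shmt2* (*Ndufa4l2*, 32 nt). *Aldh1l1* shares 332 nt with the antisense gene *Gm15756*, 255 nt from its 3′ end. *Gm15756* is not among the counted genes.

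*Mthfd1l* (chr10:3973118-4167081), which makes formate in mitochondria, had 2.21 to 16.2 normalized counts in Cas-20% and 10.6 to 20.4 in Cas-5% livers. The ranges overlapped and the difference did not pass (log2 fold change 0.79 ± 0.35, edgeR adjusted p = 0.109). With 2 to 21 counts per library in all 30 livers, a change of that size was not resolved at this depth. Without Cas-20% liver 2, the highest control, it was 1.11 (adjusted p = 0.0260).

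**Figure D2:**
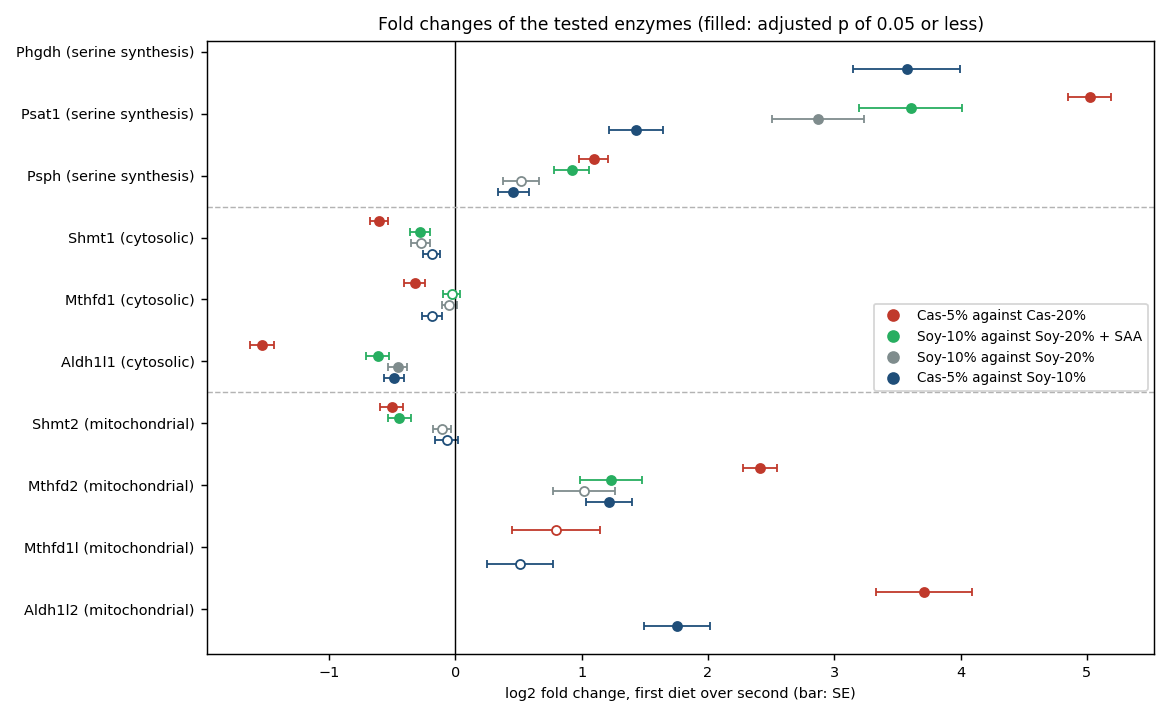
log2 fold change (x axis, with SE) of each enzyme (rows) in the 2 restriction comparisons with casein and Soy-20% + SAA controls, in Soy-10% against Soy-20%, and in Cas-5% against Soy-10%, filled where the edgeR adjusted p was 0.05 or less. Enzymes that failed the filter have no point, and *Phgdh* against Cas-20% (all at 0) is left out because its fitted value depends on the prior count. Under casein restriction *Psat1* was at 5.02, *Mthfd2* at 2.41 and *Aldh1l2* at 3.71, while *Shmt2* at −0.50 lay with the cytosolic enzymes.

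Across the 10 enzymes, 5 rose and 4 fell under casein restriction, against 11.6% of 12076 genes that rose and 13.3% that fell. *Phgdh*, *Psat1* and *Aldh1l2* reached the CPM minimum of 0.918 in all 6 Cas-5% livers and in no Cas-20% liver, so they passed the filter through the group in which they were high. *Mthfd1l*, which was not called, reached it in 6 Cas-5% and 2 Cas-20% livers. Under soy restriction with the Soy-20% + SAA control, 7 enzymes were tested. Of these *Psat1*, *Psph* and *Mthfd2* rose and *Shmt1*, *Aldh1l1* and *Shmt2* fell, against 8.51% and 8.47% of 11983 genes. *Psat1* passed that filter through Soy-10% livers alone.

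A further run left out Soy-20% + SAA livers 3 to 6, which leaves 2 control livers, and called 2.54% of all genes. No other set of that size was left out, so lost calls cannot be tied to these livers. Without them *Psat1* (3.30, edgeR adjusted p = 0.0144) and *Aldh1l1* (−0.53, adjusted p = 0.0137) passed, as did *Aldh1l2*, which then met the filter (2.63, adjusted p = 0.0475). *Psph* (0.78, adjusted p = 0.0715), *Mthfd2* (1.36, adjusted p = 0.0975) and *Shmt1* (−0.31, adjusted p = 0.0977) kept a similar size but no longer passed with 2 control livers. Without Soy-10% liver 4, which held pancreatic RNA, 5 of the 6 calls passed and *Shmt1* was at −0.25 (adjusted p = 0.0588). Over all genes 14.3% were called without that liver.

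Against the unsupplemented Soy-20% control, which shares its Soy-10% livers with the comparison above, 2 of 7 tested enzymes passed. These were *Psat1* and *Aldh1l1*, against 0.319% of 11897 genes that rose and 0.546% that fell. *Psat1* met the CPM minimum in 6 Soy-10% and 2 Soy-20% livers, so it passed the filter through Soy-10% livers. DESeq2 called 5 enzymes in that comparison, adding *Psph*, *Shmt1* and *Mthfd2*, against 1.66% of all genes.

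Within a liver, the count of a mitochondrial enzyme relative to its cytosolic partner does not depend on library size. It is not a molar ratio, since read yield differs between transcripts, so it was compared between diets only. The 4 pairs were set against each other in 4 comparisons, 16 two-sided exact permutation tests in all, in which 0.0022 is the smallest p that 6 livers against 6 can give.

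The ratio of *Shmt2* to *Shmt1* did not pass the test in any comparison. There were 492 to 675 *Shmt2* counts per 1000 *Shmt1* counts in Cas-20% livers and 504 to 745 in Cas-5% livers, with a log2 difference of 0.09 ± 0.12 (SE, exact permutation p = 0.433). It was −0.16 ± 0.11 in Soy-10% against Soy-20% + SAA (exact p = 0.177) and 0.16 ± 0.10 against Soy-20% (exact p = 0.134). Missing the threshold does not show that the ratios were equal, and changes within these errors were not resolved. The counted transcript end of *Shmt1* is 26% GC (percentile 2.97 of genes), against 55% (percentile 94.4) for *Shmt2*. The GC trend of the Soy-20% + SAA livers described above can therefore enter this ratio. Without the livers that showed it, the difference of Soy-10% against Soy-20% + SAA reversed in sign (given below). Beyond that run, the part of the GC trend in this ratio was not tested.

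The later steps shifted. There were 18.8, 22.6 and 29.9 *Mthfd2* counts per 1000 *Mthfd1* counts in Cas-20% livers (lowest, median and highest) and 133, 152 and 177 in Cas-5% livers. That was 6.64-fold, a log2 difference of 2.73 ± 0.12 (exact permutation p = 0.0022). In Soy-10% livers the ratio was 27.3, 62.4 and 80.5, which was 2.28-fold above Soy-20% + SAA (exact p = 0.00866) and 2.01-fold above Soy-20% (exact p = 0.0130), with 5 of 6 Soy-10% livers above every control liver each time.

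*Aldh1l2* counts per 1000 *Aldh1l1* counts went from 0 to 1.29 in Cas-20% livers to 15.1 to 34.1 in Cas-5% livers. The log2 difference was 5.34 ± 0.56 (exact permutation p = 0.0022). Both partners contributed, as *Aldh1l2* rose while *Aldh1l1* fell. In Soy-10% livers there were 2.22 to 7.73, all above the 0.285 to 1.13 of Soy-20% + SAA livers (log2 difference 2.80 ± 0.34, exact p = 0.0022). Against Soy-20% the difference was 1.70 ± 0.38 (exact p = 0.00649).

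*Mthfd1l* relative to *Mthfd1* was higher in Cas-5% than in Cas-20% livers by 1.33 ± 0.48 on the log2 scale (exact permutation p = 0.0173). The groups overlapped, and under soy restriction the differences were 0.63 ± 0.34 (exact p = 0.0931) and 0.73 ± 0.38 (exact p = 0.0801).

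**Figure D3:**
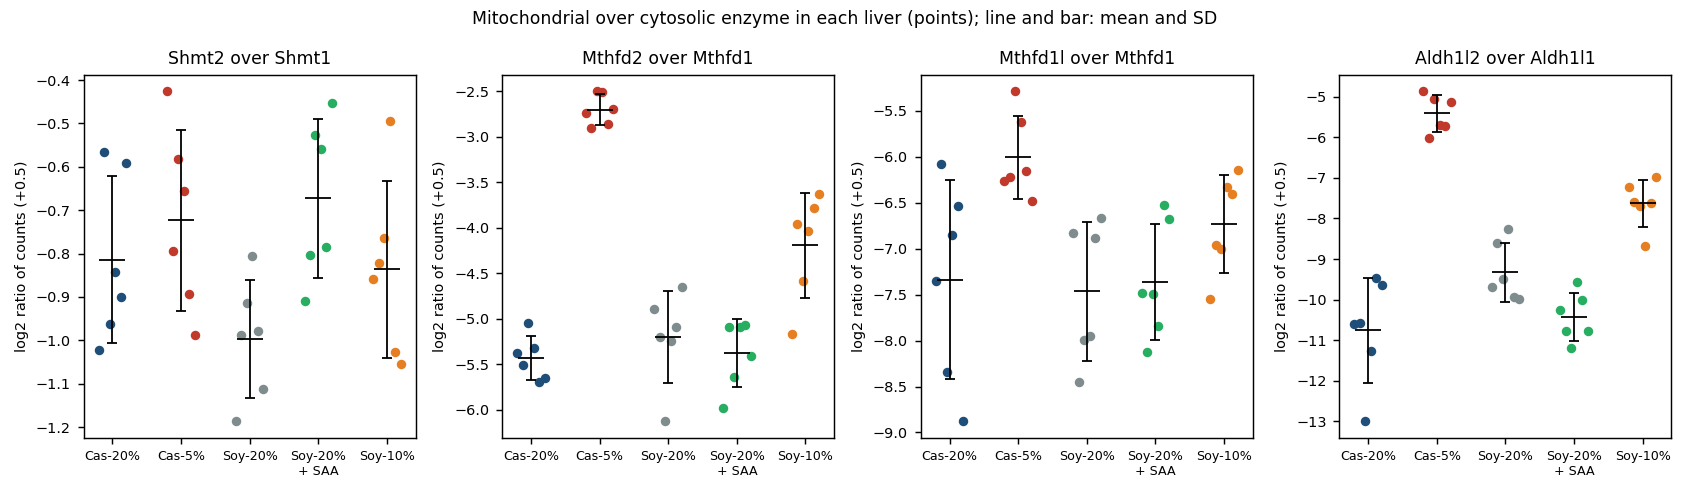
log2 ratio of the count of each mitochondrial enzyme to its cytosolic partner (y axis, 0.5 added to both counts, a scale per panel) in each liver by diet (x axis), with mean and SD in black. The *Shmt2* to *Shmt1* ratio overlapped across all 5 diets, while the *Mthfd2* to *Mthfd1* and *Aldh1l2* to *Aldh1l1* ratios of all Cas-5% livers lay above those of every other diet.

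The casein effect was larger than the soy effect for 2 enzymes, by the edgeR test of the difference in 24 livers. *Aldh1l1* fell more under casein restriction (difference of log2 fold changes −0.92 ± 0.13, adjusted p = 0.000213) and *Mthfd2* rose more (1.17 ± 0.29, adjusted p = 0.0146). In that test 3.2% of 12532 genes had a positive and 5.49% a negative difference that passed. *Psat1* (1.41 ± 0.57, adjusted p = 0.115), *Aldh1l2* (1.33 ± 0.68, adjusted p = 0.213) and *Shmt1* (−0.33 ± 0.11, adjusted p = 0.0528) did not pass. Without Soy-20% + SAA livers 3 to 6 the difference was −1.004 for *Aldh1l1* (adjusted p = 0.00114) and 1.05 for *Mthfd2* (adjusted p = 0.192).

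The restricted diets, close in methionine (0.15% and 0.13%) and different in protein, were also compared directly. Of the 10 enzymes, 5 were higher and 1 lower in Cas-5% than in Soy-10% livers, against 4.59% and 6.14% of 12041 genes. *Phgdh* was higher by 3.57 ± 0.42 on the log2 scale (edgeR adjusted p = 4.26e-05), *Aldh1l2* by 1.76 ± 0.26 (adjusted p = 0.000298), *Psat1* by 1.43 ± 0.21 (adjusted p = 0.000324), *Mthfd2* by 1.22 ± 0.18 (adjusted p = 0.000318) and *Psph* by 0.46 ± 0.12 (adjusted p = 0.0204). *Phgdh* and *Aldh1l2* met the CPM minimum in all 6 Cas-5% livers. *Phgdh* met it in no Soy-10% liver and *Aldh1l2* in 2, so both passed the filter through the group in which they were high. Of the 5 higher enzymes, *Phgdh*, *Psat1*, *Mthfd2* and *Aldh1l2* did not overlap between the diets. The share of all genes without overlap was not counted, so this only describes their ranges. *Aldh1l1* was lower by 0.49 (log2 fold change −0.49 ± 0.08, adjusted p = 0.000585), while *Shmt2* differed by −0.07 ± 0.09 (adjusted p = 0.698). The *Mthfd2* to *Mthfd1* ratio was 2.81-fold higher and the *Aldh1l2* to *Aldh1l1* ratio 4.64-fold higher in Cas-5% livers (exact permutation p = 0.0022 for each), the *Mthfd1l* to *Mthfd1* ratio was 1.65-fold higher (exact p = 0.0368), and the *Shmt2* to *Shmt1* ratio differed by 0.11 ± 0.12 on the log2 scale (exact p = 0.351).

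Adding methionine and cystine to 20% soy left no enzyme past the edgeR threshold in Soy-20% against Soy-20% + SAA livers. Of 6 tested, 0 passed and 2 had an unadjusted p under 0.05, as did 2892 of all 11932 genes tested. DESeq2 called 1, *Shmt2*, where it called 7.46% of all genes. *Shmt2* was lower without the supplement (−0.33 ± 0.08, adjusted p = 0.0660) and *Psph* was higher (0.41 ± 0.13, adjusted p = 0.0888). Leaving out Soy-20% + SAA liver 1 brought both past the threshold (*Shmt2* −0.35, adjusted p = 0.0208; *Psph* 0.47, adjusted p = 0.0331), and leaving out liver 2 brought *Shmt2* past it (−0.36, adjusted p = 0.0268). Over all genes these omissions raised the share called to 13.3% and 9.27%. Of 11932 genes, 0% were called higher and 0.00838% lower. Without Soy-20% + SAA livers 3 to 6, *Shmt2* was at −0.17 (adjusted p = 0.759) and *Psph* at 0.27 (adjusted p = 0.827).

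Between the controls of near-equal SAA content, *Aldh1l1* was higher in Cas-20% than in Soy-20% + SAA livers, without overlap (0.43 ± 0.10, edgeR adjusted p = 0.0461), where 1.42% of 11988 genes were called higher and 1.01% lower. Leaving out any Cas-20% liver, or any one of Soy-20% + SAA livers 3 to 6, raised the adjusted p to between 0.0621 and 0.103. The other 5 enzymes tested did not pass, at log2 fold changes of −0.01 to 0.29.

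By mean level over the 5 diets, *Psat1*, *Mthfd2*, *Psph*, *Aldh1l2* and *Phgdh* shared the order Cas-5%, Soy-10% and then Soy-20%, and *Aldh1l1*, *Shmt1* and *Mthfd1* had Soy-10% and then Cas-5% at the bottom. *Shmt2* also had Soy-10% and then Cas-5% at the bottom. Neighbours that did not overlap were Cas-5% and Soy-10% for *Phgdh*, *Psat1*, *Mthfd2* and *Aldh1l2*, Soy-10% and Soy-20% for *Psat1*, and Cas-20% and Soy-20% for *Shmt2*. *Aldh1l1* was the most graded, with Cas-20% above Soy-20% + SAA, Soy-20% above Soy-10% and Soy-10% above Cas-5%, each without overlap. For *Psph*, *Mthfd1*, *Shmt1* and *Mthfd1l* every pair of neighbours overlapped. How often neighbours of other genes overlapped was not counted. The Soy-20% diet had 0.22% methionine, against 0.57% in Cas-20%. Its mean *Psat1* level was 7.73 normalized counts, above 4.60 in Soy-20% + SAA and 4.58 in Cas-20% livers. Its mean *Mthfd2* level was 30.2, above 25.9 and 26.6. For both genes its livers overlapped those of the other 2 control diets. The part of methionine alone in these levels was not tested.

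Among 12560 genes followed over the 30 livers, those whose log2 CPM ran most like *Psat1* were *Tpm1* (Spearman rho 0.92), *Epb41l2* (0.90), *Fnbp1* (0.90), *Psph* (0.89) and *Cd9* (0.88). *Psph* ranked 4, and *Aldh1l2* (0.85) and *Mthfd2* (0.85) ranked 18.5 and 21. *Phgdh* had 0.78 and *Mthfd1l* 0.69. *Aldh1l1* lay at the other end with −0.80, followed by *Shmt2* (−0.63) and *Shmt1* (−0.61), and *Mthfd1* was at −0.17. These values describe livers that share 5 diets, so the livers of a diet are not independent points.

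**Figure D4:**
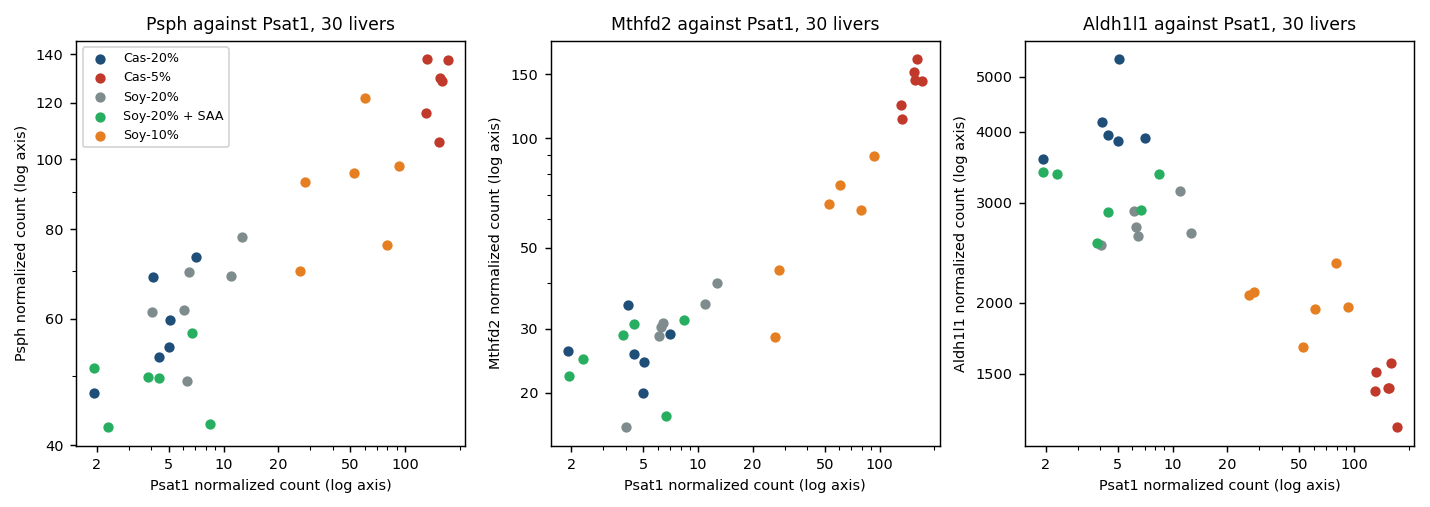
*Psph*, *Mthfd2* and *Aldh1l1* normalized counts (y axes, log) against that of *Psat1* (x axis, log) in 30 livers, coloured by diet. Cas-5% livers lay at the high *Psat1* end with high *Psph* and *Mthfd2* and low *Aldh1l1*, and Soy-10% livers lay between them and the 3 control diets in *Psat1*.

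Most other folate genes did not pass the test. Of 16 further folate enzymes and carriers, 1 rose and 1 fell under each restriction, against the backgrounds given above. *Ggh*, which trims the glutamate tail of folates, rose by 0.72 ± 0.14 under casein and 0.77 ± 0.12 under soy restriction (edgeR adjusted p = 0.00117 and 0.00110). *Ftcd*, which feeds histidine carbon into the folate pool, had log2 fold changes of −1.13 ± 0.11 and −0.85 ± 0.11 (adjusted p = 1.43e-06 and 0.000354). The median of the 16 log2 fold changes was −0.03 under casein and 0.13 under soy restriction, beside 0.02 and −0.01 over all genes tested. *Mthfd2l*, the paralog of *Mthfd2*, was at 0.05 ± 0.21 and 0.28 ± 0.20 (adjusted p = 0.887 and 0.331).

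Enzymes of glycine, dimethylglycine and sarcosine breakdown fell or did not pass. Of 7, 4 fell under casein restriction, where 13.3% of all genes fell, and 2 under soy restriction, where 8.47% did. *Dmgdh*, which oxidizes dimethylglycine, had −1.14 ± 0.08 and −0.90 ± 0.10 (edgeR adjusted p = 6.5e-08 and 0.000232), and *Sardh*, which oxidizes sarcosine, −0.73 ± 0.08 and −0.57 ± 0.11 (adjusted p = 6.22e-06 and 0.00476). *Gldc*, the decarboxylase of glycine cleavage, had −0.79 ± 0.14 (adjusted p = 0.000564) under casein restriction and −0.06 ± 0.11 (adjusted p = 0.759) under soy restriction. The difference between the 2 effects was −0.74 ± 0.19 (adjusted p = 0.0198), and *Dld*, the shared lipoamide dehydrogenase, also differed (−0.42 ± 0.13, adjusted p = 0.0439). The other one that fell under casein restriction was *Gcsh* (−0.23 ± 0.06, adjusted p = 0.0129). The list median was −0.23 under casein and −0.12 under soy restriction.

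Of 4 serine carriers, *Slc38a2*, an importer at the plasma membrane, rose by 0.48 ± 0.09 under casein restriction (edgeR adjusted p = 0.000549), and *Sfxn1*, the mitochondrial serine carrier, had −0.51 ± 0.10 (adjusted p = 0.000873). Under soy restriction they were at 0.34 ± 0.12 (adjusted p = 0.0661) and −0.20 ± 0.11 (adjusted p = 0.206). The other 2 carriers, *Slc1a4* and *Slc1a5*, had adjusted p of 0.152 and 0.324 there. The list median was 0.33 under casein and 0.07 under soy restriction.

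**Figure D5:**
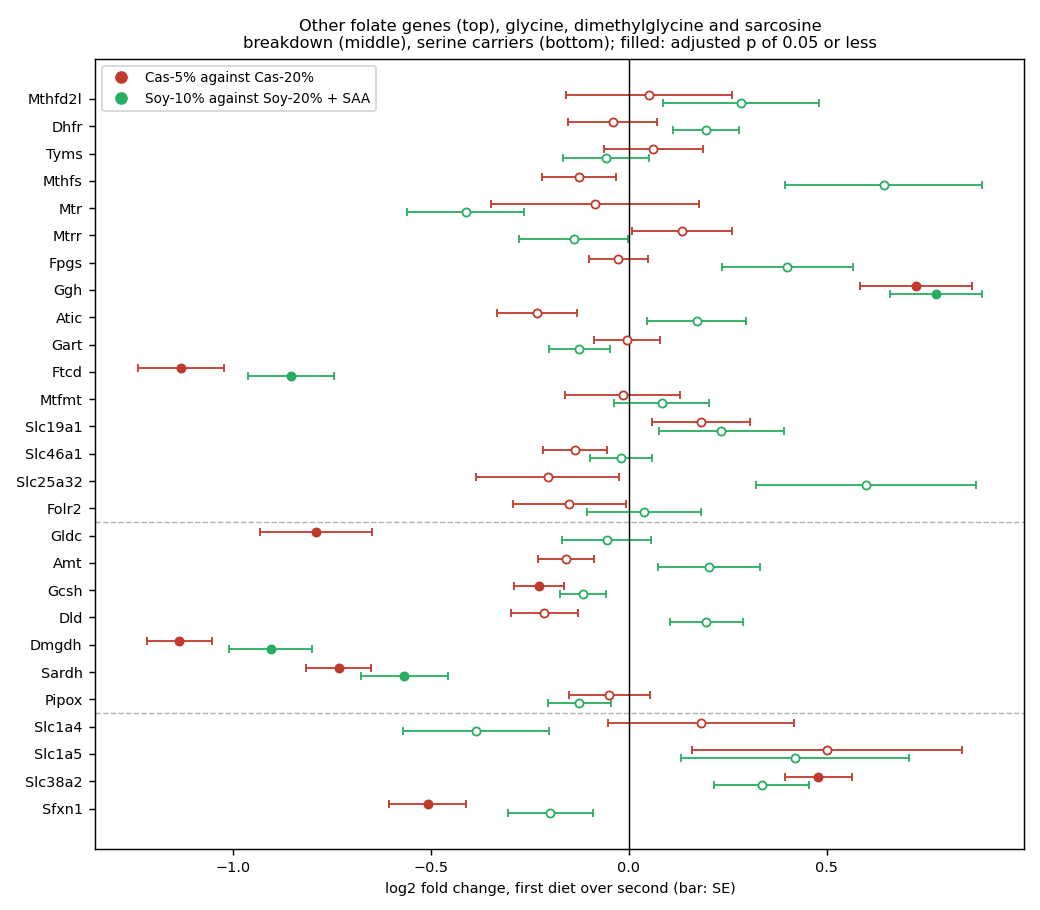
log2 fold change (x axis, with SE) of 16 other folate enzymes and carriers, 7 genes of glycine, dimethylglycine and sarcosine breakdown and 4 serine carriers (rows) under casein and under soy restriction, filled where the edgeR adjusted p was 0.05 or less. *Ftcd*, *Dmgdh* and *Sardh* lay to the left and *Ggh* to the right in both comparisons.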

How the data were processed

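Liver RNA of 30 mice was profiled by 3′ RNA-seq (Lexogen QuantSeq 3′ FWD), processed by the authors with the Bluebee pipeline. The aligner, the counting program and its use of strand are not given in the sources used here, and neither is the annotation release. The deposited counts are raw reads per gene. The deposited normalized counts are a signal the authors made with DESeq2 (version 1.30, R 4.0.3, per the submitters' processing notes) by dividing each library by a size factor, with no length scaling. Member coordinates equal those of GENCODE M21 (GRCm38) for all 10 enzymes. The authors' own comparisons were not used.

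Groups followed the labels. R 4.3.3 with edgeR 4.0.16 tested raw counts of the 12 livers of each pair of diets (filterByExpr, TMM, quasi-likelihood F test, Benjamini-Hochberg over all genes tested, threshold 0.05), and 24 livers for the difference of effects. SE is the log2 fold change divided by the root of F. DESeq2 1.42.0 was an alternative. Ratios were log2(count + 0.5) differences, tested by exact permutation (scipy 1.17.1, Python 3.11.15). The fitting code was tested on simulated data. Libraries of a diet differed by at least 6.12 in mean chi-square per gene, so none was a duplicate. Totals per library (7694015 to 14565542) give wide counting error to genes of a few counts, and a floor of 3 counts was used against groups at 0. Replicates are separate, singly housed mice.

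The members and lists were chosen with earlier results of these data known. The text names all members, up to 3 called genes per related list and restriction with the smallest adjusted p, and the 5 genes most like *Psat1*. Promoters were to be printed only where TGATGNAA occurred. None did, and the 4 shown were chosen after the values were seen. Other genes named (*Mthfd2l*, *D10Wsu102e*, *Smcr8*, *Ndufa4l2*, *Gm15756*, *Gcsh*, *Dld*, *Slc1a4*, *Slc1a5*) were also chosen then. Alternatives were DESeq2 and its size factors, no filter, 1 fit of 30 livers, a replicate block, a GC covariate, leaving out each liver or Soy-20% + SAA livers 3 to 6, and Soy-20% as the soy control. Figures were drawn with matplotlib. A gene of the related lists is not reported here and is left out of their counts and medians.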

Additional observations from a re-analysis of the deposited data

Results flagged for a closer look

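*Aldh1l1* in Cas-20% liver 2, at 5365 normalized counts against 4167 for the next liver, stood outside its group by Dixon's criterion for 6 values. Without that liver, *Aldh1l1* in Cas-20% against Soy-20% + SAA had a log2 fold change of 0.33 (edgeR adjusted p = 0.0762).

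*Phgdh* in Soy-20% + SAA liver 3 was listed at 1.94 normalized counts, which is 2 counts, while the other 5 livers of that diet had 0. These were 2 flags among 49 groups of 6 livers tested, and chance flags about 1 group in 20.

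*Aldh1l1* and *Mthfd2* responded differently to casein and soy restriction by the edgeR test of the difference of effects in 24 livers. The difference was −0.92 for *Aldh1l1* (adjusted p = 0.000213) and 1.17 for *Mthfd2* (adjusted p = 0.0146). With Soy-20% in place of Soy-20% + SAA as the soy control it was −1.08 (adjusted p = 4.1e-06) and 1.39 (adjusted p = 0.00424), and *Psat1* (2.14, adjusted p = 0.0119), *Aldh1l2* (2.51, adjusted p = 0.0118) and *Shmt2* (−0.40, adjusted p = 0.0341) also passed.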

How the results depend on the processing

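Under casein restriction 9 or 10 of the 10 enzymes were called in each alternative run, the added one being *Mthfd1l* with the GC slope of the library as covariate (1.23, edgeR adjusted p = 0.0283) or without Cas-20% liver 2. Alternatives were tabulated for the fold changes of all members tested in the 2 restriction comparisons (Soy-20% + SAA as the soy control) and of those called in the others, so members gained in the others are not among these numbers: 510 values kept direction and side of the threshold, 27 lost the threshold, 2 gained it and 1 changed sign. For ratios these numbers were 243, 13, 3 and 1. Depth limited *Phgdh*, *Aldh1l2* and *Mthfd1l*.

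Without Soy-20% + SAA livers 3 to 6, 3 members were called in Soy-10% against Soy-20% + SAA, 0 in Cas-20% against Soy-20% + SAA and 1 for casein minus soy, against 2.54%, 0.024% and 2.27% of all genes. There the ratio differences of Soy-10% against Soy-20% + SAA were 0.0196 for *Shmt2*/*Shmt1*, reversed in sign (exact permutation p = 1), 1.34 for *Mthfd2*/*Mthfd1* (exact p = 0.143) and 2.88 for *Aldh1l2*/*Aldh1l1* (exact p = 0.0714, the smallest that 6 against 2 can give). The GC covariate left 0 members called in Cas-20% against Soy-20% + SAA and 1 for casein minus soy, against 0.0417% and 4.7% of all genes. It took *Shmt1* (−0.27, adjusted p = 0.177) and *Shmt2* (−0.26, adjusted p = 0.154) above the adjusted p of 0.05 in Soy-10% against Soy-20% + SAA. DESeq2 called 5 members in Soy-10% against Soy-20%, 1 in Soy-20% against Soy-20% + SAA and 6 for casein minus soy. Over all genes it called 1.66%, 7.46% and 11.3%. A single fit of 30 livers called 2 in Soy-20% against Soy-20% + SAA and 4 for casein minus soy, against 14.3% and 10.5% of all genes. Soy-20% as the soy control gave 5, against 5.99% of all genes. Causes of these shifts were not tested.

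Replicate numbers did not pair the livers: same-number correlations of deviations ran from −0.147 to 0.169, and at most 2 of 6 livers matched their own number best. With the replicate block, 0 members were called in Cas-20% against Soy-20% + SAA and 4 for casein minus soy, against 1.18% and 10.2% of all genes. The ratio differences then had larger exact p: *Mthfd2*/*Mthfd1* 1.01 and *Aldh1l2*/*Aldh1l1* 1.70 in Soy-10% against Soy-20% (exact p = 0.0625 each), *Mthfd1l*/*Mthfd1* 1.33 under casein restriction (exact p = 0.0625) and 0.73 in Cas-5% against Soy-10% (exact p = 0.0938).

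Leaving out 1 liver at a time, members called ran from 0 to 2 in Soy-20% against Soy-20% + SAA and from 0 to 1 in Cas-20% against Soy-20% + SAA. Over all genes the share called ran from 0% to 13.3% and from 0.0748% to 15.1%. The *Mthfd1* fold change of Soy-10% against Soy-20% + SAA ran from −0.058 to 0.0075, changing sign without Soy-10% liver 5. The *Mthfd1l*/*Mthfd1* difference ran from 0.47 to 0.79 in Soy-10% against Soy-20% + SAA (below 0.05 without Soy-10% liver 1 or Soy-20% + SAA liver 5), from 0.53 to 0.89 against Soy-20% (below 0.05 without Soy-10% liver 1), and from 0.56 to 0.84 in Cas-5% against Soy-10%, where leaving out any of Cas-5% livers 2 to 5 or Soy-10% livers 1 to 3 took the exact p to 0.0519 to 0.0736.

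Over all genes, calls in Soy-10% against Soy-20% + SAA were 2035, against 329 with the GC covariate, 317 without Soy-20% + SAA livers 3 to 6 and 3077 in the single fit. In Soy-10% against Soy-20% they were 103, against 217 by DESeq2 and 62 in the single fit. In Soy-20% against Soy-20% + SAA edgeR called 1 (2892 at an unadjusted p under 0.05), DESeq2 873 and the single fit 1793. In Cas-20% against Soy-20% + SAA they were 291, against 1135, 2331, 141 with the block, 5 with the GC covariate and 3 without livers 3 to 6. For casein minus soy they were 1089, against 589 with the GC covariate and 296 without those livers. Omitting single livers gave 1219 (Soy-20% + SAA liver 5) to 3119 calls in Soy-10% against Soy-20% + SAA, 0 (6 of the livers) to 1587 in Soy-20% against Soy-20% + SAA, 9 (Soy-20% + SAA liver 6) to 1817 in Cas-20% against Soy-20% + SAA and 719 (Soy-20% + SAA liver 4) to 1941 for casein minus soy, the highest each time on omitting Soy-20% + SAA liver 1, and 50 (Soy-10% liver 5) to 146 (Soy-20% liver 3) in Soy-10% against Soy-20%.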
